A study of Mus musculus with 2 samples.

Results

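Genomic imprinting leaves a gene active mainly on the copy inherited from one parent, and many imprinted genes control growth before and after birth. The 10 genes described here are growth-related imprinted genes, taken by their gene symbols (H19, Dlk1, Meg3, Peg3, Mest, Plagl1, Ndn, Peg10, Sgce and Grb10). All 10 were found among the 16302 genes of the joined WT and β-arr1 KO tables. Igf2, the neighbor of H19, was left out of this set. The samples were astrocytes cultured from the dentate gyrus (DG) of adult mice, with the strain labelled C57BL/6 and the knockout line backcrossed to C57BL/6J. The mice were wildtype (WT) or carried a knockout of β-arrestin 1 (β-arr1 KO). The knockout line was inherited through the germline, so it is not limited to astrocytes. Shaking was used to deplete other brain cells from the cultures, which were checked for the astrocyte protein S100β. RNA sequencing was done on 1 library per genotype from pooled cDNA, so there is no replicate error and no test of genotype for any value below. Levels are given in FPKM, fragments scaled by transcript length and sequencing depth. A gene counted as changed when its level in β-arr1 KO divided by that in WT was above 3/2 or below 2/3. Depth, estimated from the steps between low values, was 9.54 M mapped fragments in WT and 9.82 M in KO, and each gene's number of fragments and the 95% interval of its ratio rest on that estimate and cover counting error only.

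Arrb1, the targeted gene, was at 7.62 FPKM in WT against 2.72 in KO, a ratio of 0.358. The Y-linked genes Ddx3y, Eif2s3y, Kdm5d and Uty summed to 8.44 FPKM in KO and were absent from the WT table, so genotype and the sex of the animals cannot be told apart in these values. Markers of astrocytes were present in both libraries, and markers of skeletal muscle and some other cell types differed between them, with values given after the results.

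Imprinted genes lie in clusters, and within a cluster a stretch of DNA methylated on one parental copy sets which genes are read from which chromosome. Maternally expressed genes of such clusters often restrain growth and paternally expressed genes often promote it. Of the genes here, H19, Meg3 and Grb10 are read mainly from the maternal copy, and Dlk1, Peg3, Mest, Plagl1, Ndn, Peg10 and Sgce from the paternal copy. Grb10 is an exception in neurons, where the paternal copy is used from another start site. FPKM values sum the reads of both copies, so the parental origin of the RNA was not measured.

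H19, Meg3 and Mest are also host genes of microRNAs, whose mature arms are shown because the host RNA levels are the results below. The hairpin of miR-675 lies in an exon of H19 at chr7:149762969-149763052 on the minus strand of NCBIM37, the assembly also called mm9. That of miR-770 lies in an exon of 1 Meg3 transcript at chr12:110801902-110801995 on the plus strand, and that of miR-335 in an intron of Mest at chr6:30691299-30691396 on the plus strand. The arms are written 5′ to 3′ from RefSeq (GRCm38.p6), with the seed, bases 2 to 8, in capitals, and the 6 arms carry 6 different seeds.
miR-675-5p (H19): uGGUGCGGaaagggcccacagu
miR-675-3p (H19): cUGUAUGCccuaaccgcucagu
miR-770-5p (Meg3): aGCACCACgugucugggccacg
miR-770-3p (Meg3): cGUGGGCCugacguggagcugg
miR-335-5p (Mest): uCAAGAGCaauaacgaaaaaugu
miR-335-3p (Mest): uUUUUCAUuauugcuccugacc
The mature microRNAs themselves were not measured in these libraries.

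Start regions were available for 7 of the members (RefSeq, 250 bases before to 50 bases after each start, 11 regions), and H19, Peg10 and Sgce have no entry. CpG, a C followed by a G, is the site that carries DNA methylation. The median was 7 CpG in 32851 mouse start regions of the same length, and 10 of the 11 member regions held at least that many. The first starts of Meg3 and Grb10 and the second start of Grb10 are shown, as these are the changed members with an entry. CpG is in capitals, and positions are those of the same sequence in NCBIM37.
Meg3, first start, chr12:110778956-110779255, plus strand: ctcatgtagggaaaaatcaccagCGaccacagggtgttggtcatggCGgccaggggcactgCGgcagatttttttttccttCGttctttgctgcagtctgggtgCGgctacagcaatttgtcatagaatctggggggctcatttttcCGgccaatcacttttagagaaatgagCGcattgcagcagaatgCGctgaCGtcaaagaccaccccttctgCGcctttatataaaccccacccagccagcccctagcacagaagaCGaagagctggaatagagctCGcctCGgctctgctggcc
Grb10, first start, chr11:11937374-11937673, minus strand: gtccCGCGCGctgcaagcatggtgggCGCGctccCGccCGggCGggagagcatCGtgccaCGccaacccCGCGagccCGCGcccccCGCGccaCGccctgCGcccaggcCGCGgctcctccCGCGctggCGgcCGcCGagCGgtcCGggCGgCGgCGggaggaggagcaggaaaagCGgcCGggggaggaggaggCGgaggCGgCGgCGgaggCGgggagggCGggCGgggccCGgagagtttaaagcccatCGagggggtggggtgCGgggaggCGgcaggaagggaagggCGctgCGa
Grb10, second start, chr11:11927925-11928224, minus strand: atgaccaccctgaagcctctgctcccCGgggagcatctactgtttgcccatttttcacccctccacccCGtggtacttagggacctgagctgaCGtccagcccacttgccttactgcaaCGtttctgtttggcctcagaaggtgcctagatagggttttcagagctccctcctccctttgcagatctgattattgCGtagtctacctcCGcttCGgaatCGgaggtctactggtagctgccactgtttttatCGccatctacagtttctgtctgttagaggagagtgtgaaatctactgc
The first Grb10 start held 45 CpG, a number that 1.93% of all start regions reached, and the second held 9. The first Meg3 start held 13 CpG, and a second one, further downstream, held 1. The deposited loci of Meg3 and Grb10 began at the first start in both libraries, and the gene value does not separate the starts. The hexamer CAGCTG, an E-box that reads the same on both strands, was found in 1 of the 11 regions (Mest) and in 16.3% of all start regions.

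All 10 genes were expressed in both libraries, over a range from 2.84 to 68.9 FPKM in WT and from 4.10 to 75.3 FPKM in β-arr1 KO. In WT the order from the highest level was Ndn, Grb10, Meg3, Sgce, Peg10, Peg3, H19, Mest, Plagl1 and Dlk1, where Peg3 and H19 shared a level of 13.1 FPKM. In KO the order was Meg3, H19, Ndn, Peg10, Grb10, Sgce, Peg3, Mest, Plagl1 and Dlk1. Place in the order changed most for H19, which stood below 6 of the other genes in WT and below Meg3 alone in KO. With 1 library each, neighbors in these orders cannot be separated beyond a replicate spread. The 10 genes summed to 272 FPKM in WT against 343 in KO. The maternally expressed genes made up 42.7% of that sum in WT and 53.2% in KO.

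**Figure D1:**
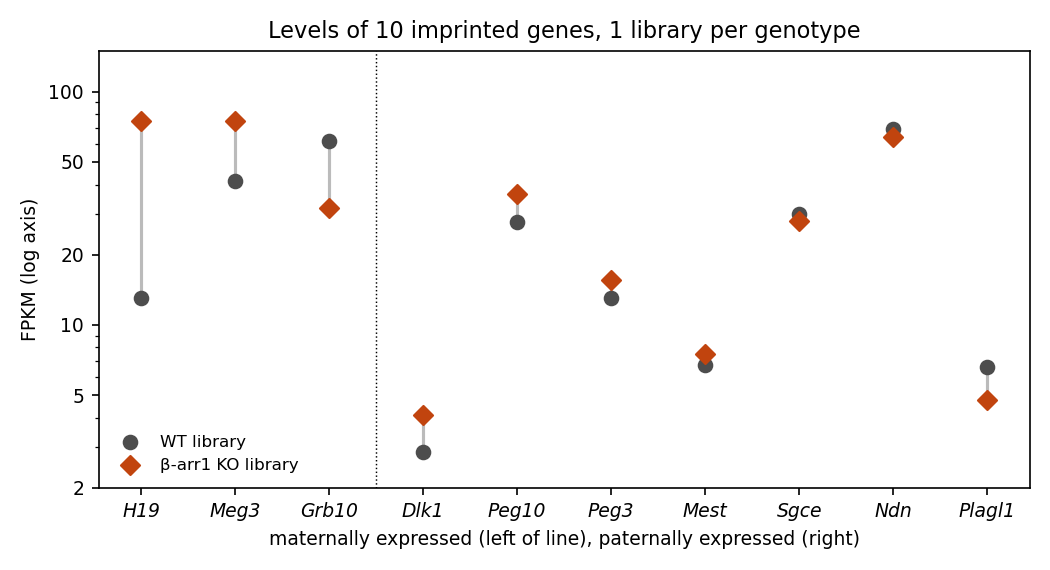
FPKM on a log axis (vertical) of each gene (horizontal) in the WT library (gray circles) and the β-arr1 KO library (orange diamonds), with a gray line joining the 2 values of a gene. The 3 maternally expressed genes, left of the dotted line, are furthest apart, from 13.1 to 75.0 FPKM for H19, and the 7 paternally expressed genes lie close together.

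H19 and Meg3, which make long RNAs without a protein product, were both higher in the KO library. H19 (NCBI gene 14955), on chromosome 7 of mm9 from 149761437 to 149764051, is abundant in fetal tissue and muscle and holds back growth. Its level was 13.1 FPKM in WT against 75.0 in KO, with a KO/WT ratio of 5.72 (log2, 2.52). At least 210 and 1239 fragments lay behind these values, and the 95% interval for counting error was 4.94 to 6.66. In WT, H19 stood at percentile 65.3 of the listed genes, and in KO at percentile 94.5. Only 40 of the 12171 genes analysed and listed in both tables, H19 included, had a ratio as high (0.329%).

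Meg3 (NCBI gene 17263), at 110779206 to 110809939 of chromosome 12, is transcribed into a nuclear RNA with growth-suppressing activity. It was at 41.6 FPKM in WT against 75.3 in KO, and KO/WT was 1.81 (interval 1.63 to 2.02). Some 4.11% of the genes had a ratio at least as high. The level of Meg3 was 3.17 times that of H19 in WT and 1.00 times in KO, so the pair ended at the same level in the KO library.

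Grb10 (NCBI gene 14783), on the minus strand of chromosome 11 from 11830502 to 11937423, changed in the other direction. It encodes an adapter protein that binds the insulin and IGF1 receptors and dampens their signal. Its level was 61.5 FPKM in WT against 31.8 in KO, with a KO/WT ratio of 0.517 (log2, -0.95). At least 1102 and 586 fragments gave an interval from 0.467 to 0.572, and 3.02% of the genes had a ratio as low. WT held the higher value of Grb10 and KO the higher value of both noncoding RNAs, so the 3 maternally expressed genes did not share a direction.

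The 7 paternally expressed genes all lay between the limits, with ratios from 0.726 to 1.44. Dlk1 (NCBI gene 13386), a membrane protein related to Notch ligands that holds back the maturation of fat cells, was the lowest in level, at 2.84 FPKM in WT against 4.10 in KO. Its ratio of 1.44 was the nearest to the upper limit, and its interval of 0.857 to 2.47, from at least 26 and 39 fragments, included both 1 and 3/2. With the longest annotated transcript in place of the shortest, 121 and 181 fragments gave 1.14 to 1.83, which left out 1 but not 3/2. Which side of 3/2 Dlk1 lies on was thus not settled by counting error at either length. Plagl1 (NCBI gene 22634), a zinc finger transcription factor that arrests the cell cycle, was at 6.58 FPKM in WT against 4.78 in KO. Its ratio of 0.726 was the lowest of the paternally expressed genes, and its interval of 0.489 to 1.07, from at least 64 and 48 fragments, included 1 and 2/3. On the longest transcript, 320 and 239 fragments gave 0.611 to 0.861, which left out 1 but not 2/3.

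Peg10 (NCBI gene 170676), derived from a retrotransposon and needed for the placenta, was at 27.6 FPKM in WT against 36.5 in KO. The ratio of 1.33 had an interval of 1.25 to 1.41 that left out both 1 and 3/2. Peg3 (NCBI gene 18616), a zinc finger protein that affects growth and maternal behavior, was at 13.1 and 15.6 FPKM, and KO/WT was 1.19 (interval 1.04 to 1.36). The WT table also listed an antisense gene, Peg3as, at 2.02 FPKM inside the Peg3 locus, and the KO table did not. With the overlapping rows summed, the ratio of Peg3 was 1.03. Mest (NCBI gene 17294), an enzyme of the hydrolase fold that is linked to the size of fat cells, was at 6.70 and 7.50 FPKM, and the interval of its ratio of 1.12 included 1 (0.895 to 1.40).

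Ndn and Sgce were slightly lower in KO, with intervals that included 1. Ndn (NCBI gene 17984), which encodes necdin, a protein that slows cell division, was the highest of the 10 genes in WT. It was at 68.9 FPKM in WT against 63.9 in KO, and KO/WT was 0.928 (interval 0.847 to 1.02). Sgce (NCBI gene 20392), which encodes ε-sarcoglycan of the dystrophin-associated complex, was at 30.0 and 28.0 FPKM, and KO/WT was 0.933 (interval 0.801 to 1.09).

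**Figure D2:**
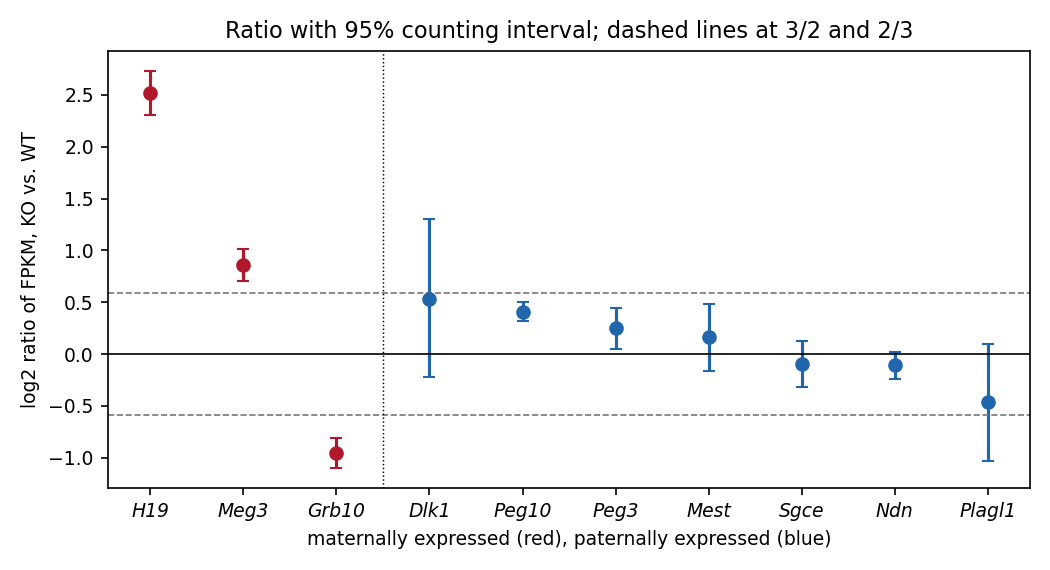
Log2 ratio of FPKM, β-arr1 KO vs. WT (vertical), for each gene (horizontal), with bars for the 95% interval of counting error and dashed lines at 3/2 and 2/3. All 3 maternally expressed genes (red) lie outside the dashed lines, H19 and Meg3 above and Grb10 below, and all 7 paternally expressed genes (blue) lie between them.

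Thus 3 of the 10 genes were past the limits, 2 up and 1 down, where 17.8% of all 12646 genes analysed were past them (9.56% up and 8.28% down). The 12646 include genes listed for 1 library alone, which always count as changed. Of the 11622 genes at 1 FPKM or more in both libraries, as all 10 were, 11.8% were past the limits. Of the 7338 genes analysed with equal bounds, 13.8% were. With limits of 2 and 1/2, 1 of the 10, H19, was past them, against 9.2% of all genes (4.78% up and 4.42% down). The 3 past 3/2 or 2/3 were the 3 maternally expressed genes, and 0 of 7 paternally expressed genes were past the limits. The median log2 ratio was 0.86 in the maternally expressed genes and 0.16 in the paternally expressed genes, against 0.02 in the 12171 genes analysed and listed in both tables. The maternal median is the value of Meg3 alone, as the other 2 genes lie on opposite sides of it. The summed level of the maternally expressed genes was 116 FPKM in WT against 182 in KO, a ratio of 1.57, and that of the paternally expressed genes was 156 and 160 FPKM, a ratio of 1.03. H19 made up 11.3% of the maternal sum in WT and 41.2% in KO. With 3 and 7 genes from 1 library per genotype, and clusters that hold several of these genes, the difference between the maternal and the paternal genes could not be tested. All 10 loci had the same start and end in both tables, whereas 58.0% of all genes analysed did.

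Values of neighboring genes showed how far a difference extended along each locus. Meg3, Dlk1, Rian and Mirg belong to the same imprinted cluster of chromosome 12. Rian, a noncoding RNA downstream of Meg3 that is also maternally expressed, was at 21.3 FPKM in WT against 26.4 in KO, and KO/WT was 1.24 (interval 1.12 to 1.37). Mirg, further downstream, was at 2.67 and 2.34 FPKM, and KO/WT was 0.878 (interval 0.496 to 1.54). Of Dlk1, Meg3, Rian and Mirg, Meg3 had the highest ratio and was the one past the limits, although the interval of Dlk1 (0.857 to 2.47) included its value, and the level of Meg3 was 1.95 times that of Rian in WT and 2.86 times in KO. Rtl1, the paternally expressed gene between Meg3 and Rian, was listed at 0.0207 and 0.0262 FPKM, too low for a comparison.

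Peg10 and Sgce start 101 bases apart on opposite strands of chromosome 6. Their levels were close in WT, where Peg10 was at 0.918 times Sgce, and in KO Peg10 was at 1.30 times Sgce. Ppp1r9a, which encodes the actin-binding protein neurabin and lies 142.5 kb beyond Peg10, was at 3.89 and 2.46 FPKM, a ratio of 0.633. Its row started at different positions in the 2 tables. Casd1, on the Sgce side, was within the limits at 7.31 and 7.70 FPKM.

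At the H19 locus, the gene nearest on the downstream side was Mrpl23, a mitochondrial ribosomal protein gene, at 4.08 FPKM in WT against 2.45 in KO, a ratio of 0.601. Beyond it lie Tnnt3 and Tnni2, which encode troponins of fast skeletal muscle. Tnnt3, 59.5 kb from H19, was at 0.508 FPKM in WT against 10.1 in KO, a ratio of 19.8. Tnni2, 131 kb away, was at 1.48 and 4.36 FPKM, a ratio of 2.95. Lsp1, Ifitm10 and Ctsd in the same region were within the limits and lower in KO, with ratios of 0.723, 0.751 and 0.803. Near Grb10, Cobl, an actin-nucleating factor, was at 7.49 and 6.49 FPKM, a ratio of 0.868. Ddc, an imprinted neighbor read from the paternal copy in the heart, was listed at 0.117 and 0.171 FPKM. The nearest genes of Plagl1, Sf3b5 and Ltv1, had ratios of 0.957 and 0.943, and Copg2, whose end overlaps that of Mest, had a ratio of 0.868. On the other side of Mest, Tsga14 had a ratio of 1.06. Some nearest neighbors were below 1 FPKM in both libraries. They were Zim1 (0.409 FPKM in WT against 0.673 in KO) and Usp29 (0.0586 FPKM, WT table alone) beside Peg3, A330076H08Rik (0.503 against 0.998) and Mkrn3 (0.573 against 0.729) beside Ndn, and Ins2 (0.749 against 0.358) upstream of H19.

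**Figure D3:**
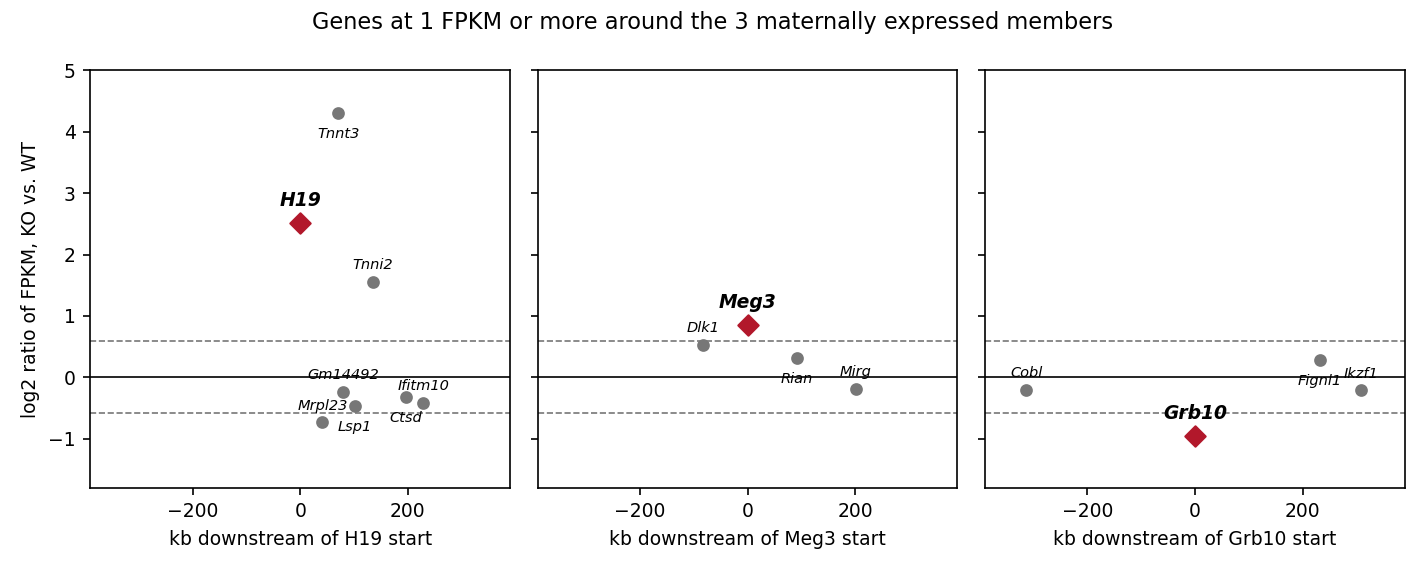
Log2 ratio of FPKM, β-arr1 KO vs. WT (vertical), of genes at 1 FPKM or more against the distance of their midpoint from the start of H19, Meg3 or Grb10 in kb, positive downstream (horizontal). Red diamonds mark the 3 members, dashed lines the ratios 3/2 and 2/3, and Igf2 upstream of H19 is not drawn. Tnnt3 and Tnni2 lie above the upper line near H19, Mrpl23 lies below the lower line, and no other gene drawn near Meg3 or Grb10 is past the lines.

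A wider list of 54 other imprinted genes was compared in the same way. Of these, 46 were listed, 31 reached 1 FPKM, and 7 of the 31 were past the limits (22.6%), 3 up and 4 down, near the 17.8% of all genes. Among 18 maternally expressed genes of this list, 1 was up, 2 were down and 15 were inside, with a median log2 ratio of -0.08. Among 12 paternally expressed genes, 2 were up, 2 were down and 8 were inside, with a median log2 ratio of -0.01. Past the limits were thus 16.7% of the maternally and 33.3% of the paternally expressed genes of the wider list.

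The changed maternally expressed genes of this list were Dcn, Ppp1r9a and Tfpi2. Dcn, which encodes the collagen-binding proteoglycan decorin and is a fibroblast marker as well, was at 6.11 FPKM in WT against 0.831 in KO, and KO/WT was 0.136 (interval 0.0698 to 0.244). Tfpi2, an inhibitor of serine proteases, was at 3.53 and 6.16 FPKM, and KO/WT was 1.75 (interval 1.20 to 2.56). Both Dcn and Tfpi2 are known as imprinted in the placenta. Cd81, Igf2r and Commd1, the highest of those inside the limits, had ratios of 0.912, 0.930 and 1.02. Igf2r, which clears the growth factor IGF2 from the cell surface, was at 47.1 FPKM in WT against 43.8 in KO.

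The changed paternally expressed genes of this list were Rasgrf1, Nap1l5, Nnat and Airn. Rasgrf1, an exchange factor for Ras, was at 1.25 FPKM in WT against 4.20 in KO, and KO/WT was 3.37 (interval 1.63 to 7.66). Nap1l5, related to nucleosome assembly proteins, had a ratio of 1.54 (interval, 1.05 to 2.28) at 2.80 and 4.31 FPKM. Nnat, a small membrane protein of the endoplasmic reticulum, was at 9.66 and 4.23 FPKM, and KO/WT was 0.438 (interval 0.294 to 0.644), and its locus had different bounds in the 2 tables. Airn, the antisense RNA that silences Igf2r on the paternal copy, was at 2.42 and 1.11 FPKM, and the interval of its ratio of 0.459 included 1 (0.194 to 1.01). On the longest transcript the interval was 0.218 to 0.916, which left out 1. Because Airn runs antisense to Igf2r and strand-specific counting is not stated, reads of the pair cannot be told apart. Snrpn, Impact and Mcts2, the highest of those inside the limits, had ratios of 1.20, 0.839 and 1.08. Gnas, which has transcripts from either parental copy, was at 919 and 901 FPKM.

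**Figure D4:**
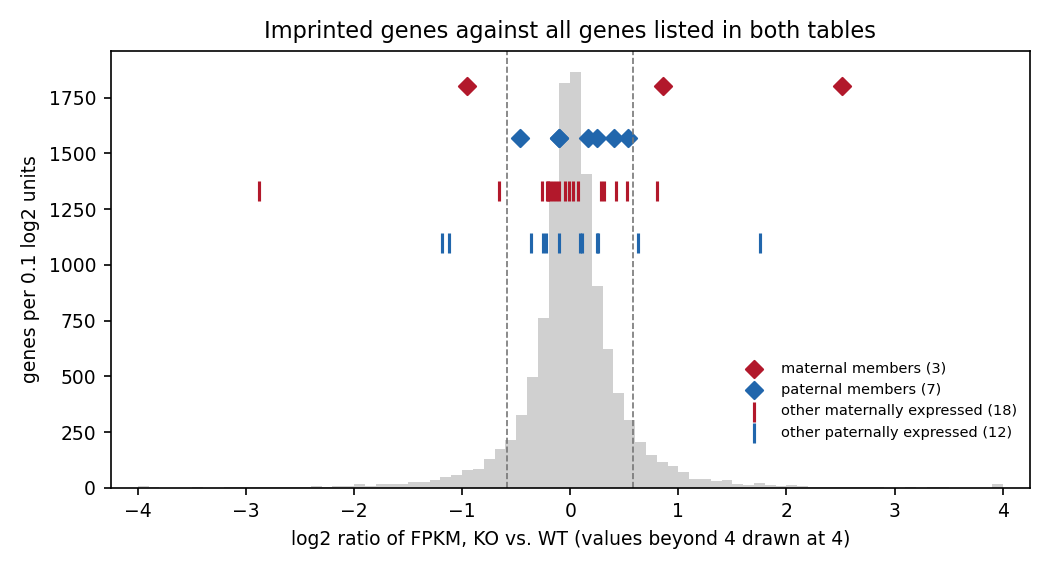
Histogram of the log2 ratio of FPKM, β-arr1 KO vs. WT (horizontal), of all genes analysed and listed in both tables (gray, genes per bin on the vertical axis), with the members (diamonds) and the other imprinted genes (ticks) drawn over it at heights without meaning, red for maternal and blue for paternal expression. The members H19, Meg3 and Grb10 lie outside the dashed lines at 3/2 and 2/3, the blue diamonds all lie between them, and the ticks fall on both sides.

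Genes that set or keep imprints had ratios within the limits, although some of the counting intervals reached past them. Of 22 such genes, 20 were listed and 16 reached 1 FPKM, with 0 past the limits and a median log2 ratio of 0.03. Mbd3, a subunit of the NuRD complex, was at 61.3 FPKM in WT against 67.0 in KO. Trim28, the corepressor that holds methylation at imprinted regions, was at 54.7 and 54.4 FPKM, and Mbd2 was at 31.8 and 28.7 FPKM. The DNA methyltransferase Dnmt1 had a ratio of 0.976, and Ctcf, the factor that insulates H19 from its neighbor on the unmethylated copy, had a ratio of 1.07. Tet2, an enzyme that oxidizes methylated cytosine, was nearest to a limit, at 0.691 (interval 0.572 to 0.833). Zfp57 was next, at 0.736 (interval 0.536 to 1.01). Both intervals included 2/3, so counting error does not settle on which side of it these genes lie. DNA methylation itself was not measured.

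In bulk cultures, fewer cells of a type and less RNA per cell cannot be told apart, and several marker lists differed between the libraries beside these genes. Of 31 skeletal muscle markers, 28 were listed, and 18 of the 19 that reached 1 FPKM were above 3/2 in the KO library. Their sum was 46.6 FPKM in WT against 279 in KO, a ratio of 5.98. Des, the 1 marker inside the limits, held most of the WT sum and had a ratio of 1.41. The 14 that were above 0 in both libraries and reached 1 FPKM had a median ratio of 10.3. Des, Mylpf and Acta1 were the highest markers in KO, at 41.9, 38.7 and 28.4 FPKM, from 29.7, 1.08 and 5.95 FPKM in WT. Myod1, the defining factor of the muscle lineage, was absent from the WT table and at 0.968 FPKM in KO, and Myog was at 0.160 and 4.12 FPKM. In WT 8 of the 28 markers were at 0, and in KO 3 were, Myh1, Myh2 and Myh3. The KO row of Myh8 (23.4 FPKM) ran from 66891802 to 67185004 of chromosome 11, which spans the WT rows of these 3 genes. Their zeros and the value of Myh8 thus rest on loci that were divided differently in the 2 libraries. The part of muscle RNA in the level of H19 or Meg3 was not tested.

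Of 13 fibroblast and meningeal markers, all were listed, and 5 of the 9 at 1 FPKM or more were below 2/3 in KO and 1, Pdgfra, was above 3/2. Their sum was 691 FPKM in WT against 397 in KO, a ratio of 0.574, and the median ratio of the 9 was 0.581. Col1a1 was at 420 and 237 FPKM, Col1a2 at 92.3 and 34.3 FPKM and Col3a1 at 88.3 and 43.3 FPKM. Lum, Fap and Tcf21 were at 0 in KO, and Slc47a1 was at 0 in WT. Col1a2 lies in the same region of chromosome 6 as Sgce and Peg10, which were inside the limits. The part of fibroblast RNA in the level of Grb10 was not tested.

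The labelled cell type was present in both libraries. All 10 astrocyte markers were listed, with 4 above 3/2 and 0 below 2/3 in KO and sums of 396 and 420 FPKM. Gfap, Glul and S100b, the highest of them, were at 192, 61.8 and 51.7 FPKM in KO, from 189, 83.3 and 29.3 FPKM in WT. Of the 10 astrocyte markers, 8 were higher in KO and 2 lower, Glul and Gja1, with ratios of 0.742 and 0.862. Of 8 oligodendrocyte lineage markers at 1 FPKM or more, 4 were above 3/2 (Olig1, Olig2, Sox10 and Pdgfra, with ratios of 1.71, 2.11, 2.003 and 1.93) and 0 below 2/3, and the sum had a ratio of 1.43. Of 7 endothelial markers, Pecam1 and Flt1 were above 3/2 (1.72 and 1.71) and Cdh5 was below 2/3, at 31.8 FPKM in WT against 16.1 in KO. The endothelial median ratio was 1.44 and 5 of the 7 were higher in KO, whereas the sum, with Cdh5 the highest, had a ratio of 0.884. Of 7 neural precursor markers, Sox2 and Prom1 were above 3/2 (1.59 and 2.24) and the other 5 were inside the limits. Among these 5, Mki67 and Pax6 were lower in KO, with ratios of 0.954 and 0.875. Of 7 mural and smooth muscle markers, 1, Rgs5, was below 2/3, and 0 of 10 microglial and 0 of 2 neuronal markers were past the limits. The sums were 203 and 253 FPKM for neural precursors, a ratio of 1.24, and 48.8 and 64.8 FPKM for neurons, a ratio of 1.33. Most of the precursor sum was Nes (121 and 153 FPKM), and most of the neuronal sum was Tubb3 (44.7 and 59.8 FPKM). Apart from Tubb3 and Syn1, the listed neuronal markers were below 1 FPKM in both libraries, and Map2 was not listed. Mural and smooth muscle markers summed to 5860 FPKM in WT and 5568 in KO, a ratio of 0.950. Most of this sum was Tagln (2915 and 2597 FPKM) and Acta2 (2478 and 2469 FPKM), whereas Pdgfrb and Kcnj8 were not listed and Abcc9 was below 1 FPKM. Microglial markers summed to 1016 and 809 FPKM, a ratio of 0.796. In both libraries the mural and the microglial sums were above the astrocyte sum, but sums of different marker lists do not compare numbers of cells. The part of any of these cells in the levels of the imprinted genes was not tested.

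**Figure D5:**
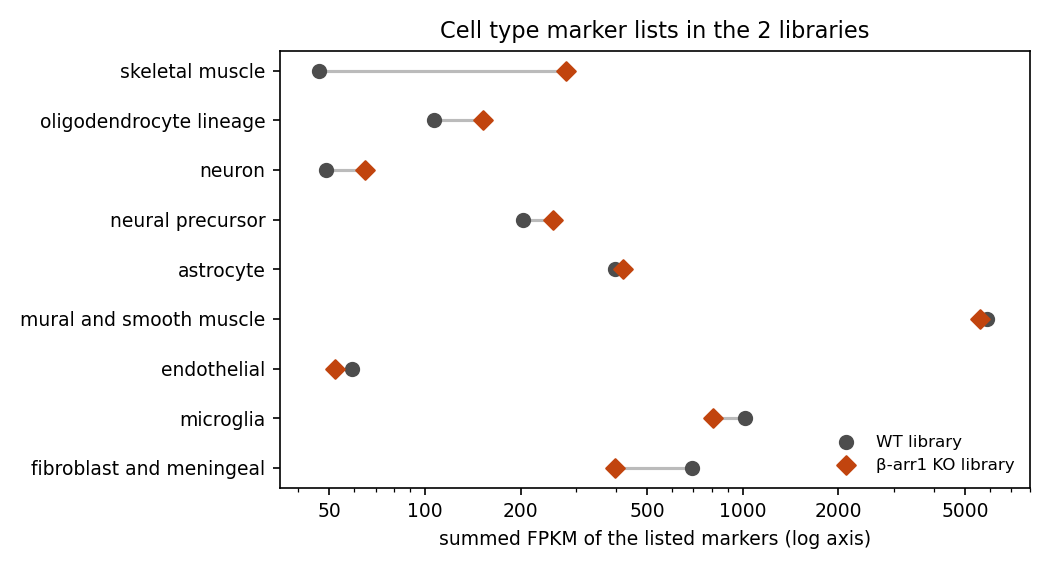
Summed FPKM on a log axis (horizontal) of 9 cell type marker lists (vertical) in the WT library (gray circles) and the β-arr1 KO library (orange diamonds). The skeletal muscle list is furthest apart, at 46.6 and 279 FPKM, and the fibroblast and meningeal list is lower in KO, at 691 and 397 FPKM.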

How the data were processed

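Gene expression was measured by RNA sequencing in 1 library per genotype. The authors aligned read pairs to mm9 with TopHat (1.4.0 in the submitters' processing notes), estimated expression with Cufflinks, whose version is not given in the sources used here, and deposited FPKM values, which scale fragments by length of the transcript and by depth. The tables list only values above 0 and hold no counts. The submitters grouped the samples by genotype.

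Tables were joined by symbol, keeping the highest row of a symbol, and 1 was added to each start. A gene absent from a table was set to 0. Analysis was limited to genes that reached 1 FPKM in either library. The median log2 ratio was 0.02, and no rescaling was applied.

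Depth was estimated from genes below 0.15 FPKM with a unique GENCODE transcript over 1000 bases, by the spacing that 1, 2 and 3 fragments give. At 9.54 M mapped fragments, 69.2% of the 416 genes used in WT were within 5% of such a step, and at 9.82 M, 69.9% of 435 in KO. Fragments per gene used its shortest GENCODE transcript of at least 1000 bases, so they are lower bounds on that scale. The 95% intervals (Clopper-Pearson on the share of KO fragments, centred on the FPKM ratio) cover counting error only and miss reads shared by several genes.

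With 1 library per genotype no p-value was computed. Named genes were all members, Arrb1, the changed and the 3 highest unchanged genes of each imprinted list and the neighbors at each locus. The 3 highest of the astrocyte, fibroblast and skeletal muscle marker lists were named as well. Other genes were named after their values were seen. The remaining marker lists are given by their counts and sums. The members and lists were chosen with earlier results of these data known. The calls, the depth estimate and the intervals were tested on simulated data. Alternatives were other pseudocounts, scalings, minimum levels and limits, the summing of rows, and the use of loci with equal bounds. Tools were Python (3.11.15), numpy (2.4.6), scipy (1.17.1), pandas (2.3.3) and, for plots, matplotlib (3.10.9).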

Additional observations from a re-analysis of the deposited data

How the results depend on the processing

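Under 7 alternatives per gene (pseudocounts of 0.1 and 1 FPKM, 3 rescalings, 2 ways of summing rows), the ratio of H19 stayed between 5.39 and 5.74, that of Meg3 between 1.79 and 1.82 and that of Grb10 between 0.510 and 0.525, and none of the 10 genes crossed 3/2 or 2/3. The rescalings multiplied KO values by 0.987 to 1.003. Only Peg3 left its counting interval, at 1.03 with overlapping rows summed. Limits of 2 and 1/2 left 1 member past them, H19 (1 of the maternally expressed genes), where 9.2% of all genes were past them, and 1 of the other maternally expressed genes. With lower minimum levels, the other maternally expressed genes past the limits rose from 3 of 18. They were 7 of 24 at 0.1 FPKM or no minimum, and 6 of 23 at 0.5 FPKM. The other paternally expressed genes past the limits went from 4 of 12 to 7 of 18 (0.1 FPKM), 9 of 21 (no minimum) and 1 of 6 (5 FPKM). Imprint maintenance genes past them went from 0 of 16 to 2 of 20 with no minimum. In each case more or fewer genes were counted. The median log2 ratio moved from 0.16 to 0.031 in the paternally expressed members at 5 FPKM, which leaves out Dlk1, and from -0.01 to -0.12 in the other paternally expressed genes at 0.1 FPKM. The remaining 213 of 226 values stayed within 0.1 (log2 medians), 1.5 times (counts) or the counting interval (ratios). The number of genes past 3/2 or 2/3 was 2256 of 12646. It was 3969 of 15260 at 0.1 FPKM, 4830 of 16302 with no minimum and 1179 of 9397 at 5 FPKM. At 1 FPKM in both libraries it was 1372 of 11622, and with equal bounds 1015 of 7338. With limits of 2 and 1/2 instead, 1163 of 12646 genes were past them. No paired analysis was possible because each genotype has 1 library. Whether the counting intervals of Dlk1 and Plagl1 include 1 depends on the transcript length used, and the same holds for Airn and Zfp57.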

Other observations

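Other genes near the members also differed between the libraries. Phactr2, a regulator of phosphatase 1 and actin that lies 76.0 kb beyond Plagl1, was at 5.46 FPKM in WT against 8.74 in KO, a ratio of 1.60. On the other side of Plagl1, B230208H11Rik was at 0.228 and 1.22 FPKM. Utrn, which encodes utrophin, a relative of dystrophin, was at 23.0 and 26.1 FPKM and within the limits. Begain, at the outer edge of the Dlk1 cluster, was at 1.12 FPKM in WT against 0.705 in KO, a ratio of 0.628. These genes were looked at because of their place and were not tested.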
